A study of Homo sapiens with 8 samples.

Results

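Thymidylate synthase (TYMS) and 7 further genes that supply it with folate were followed through RNA of 2 human colon cancer lines. The members were taken by symbol from the deposited count table: SLC19A1, FPGS, GGH, SHMT1, MTHFD1, MTHFD1L, TYMS and MTR. All 8 were found among 57169 table entries, and all 8 passed the filter on low counts that left 21378 genes for testing. The 4 groups were SW620 cells given AFZC, SW620 cells given 5-fluorouracil (5-FU), HCT116 cells given AFZC and HCT116 cells given 5-FU, with 2 libraries in each. Per the series title, AFZC is a metal-organic framework that encapsulates 5-FU and is modified with an aptamer, a short nucleic acid that binds a target. Each agent was given for 24 h at its IC50 dose, whose value is not given in the sources used here. Both treatments of a line therefore contained 5-FU, no untreated cells were analysed here, and every change below is AFZC relative to free 5-FU. The difference between carrier and free drug and any difference in the amount of 5-FU delivered cannot be told apart. Each line is 1 established culture, HCT116 from a primary colon carcinoma and SW620 from a lymph node metastasis of a colon carcinoma.

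Folate carries single carbon units, and cells use them to build thymidylate and purines and to remake methionine. Reduced folate enters through the carrier SLC19A1. FPGS adds a glutamate tail that keeps folate inside the cell, and GGH removes the tail. SHMT1 in the cytosol loads a carbon from serine onto tetrahydrofolate, MTHFD1 interconverts the carbon's oxidation states in the cytosol, and MTHFD1L releases formate from mitochondria for the cytosolic pool. TYMS spends the carbon to turn dUMP into dTMP, the step that DNA synthesis depends on, and MTR spends it to turn homocysteine into methionine. 5-FU is converted in cells to a nucleotide that binds TYMS together with the folate cofactor and blocks the enzyme, and the same folate pool is what leucovorin enlarges when it is given with 5-FU to patients with colorectal cancer. RNA levels say nothing by themselves of the enzyme's protein or activity.

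TYMS lies on chromosome 18 (657604 to 673578, plus strand), SHMT1 on chromosome 17 (18327860 to 18363563, minus strand) and MTHFD1L on chromosome 6 (150865549 to 151101887, plus strand) in the GRCh38 coordinates of the files. FPGS lies on chromosome 9 (127794597 to 127814327, plus strand), MTHFD1 on chromosome 14 (64388031 to 64463457, plus strand), SLC19A1 on chromosome 21 (45493572 to 45544411, minus strand) and MTR on chromosome 1 (236795281 to 236903981, plus strand). The 250 bases before the transcription start are shown for the 3 genes whose response to AFZC differed between the lines, from RefSeq on GRCh38.p14, each 5′ to 3′ along its own gene. They are chr18:657403-657652 for TYMS, chr17:18363551-18363800 on the minus strand for SHMT1 and chr6:150866236-150866485 for MTHFD1L. Capitals mark the E2F element letters in TYMS, the CCAAT box and GC box letters in SHMT1 and the C/EBP-ATF element letters in MTHFD1L.
TYMS: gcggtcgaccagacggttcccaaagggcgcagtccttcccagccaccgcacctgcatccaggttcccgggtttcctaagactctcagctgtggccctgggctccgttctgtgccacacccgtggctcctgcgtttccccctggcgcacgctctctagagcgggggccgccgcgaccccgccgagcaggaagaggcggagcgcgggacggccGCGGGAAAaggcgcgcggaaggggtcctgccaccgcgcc
SHMT1: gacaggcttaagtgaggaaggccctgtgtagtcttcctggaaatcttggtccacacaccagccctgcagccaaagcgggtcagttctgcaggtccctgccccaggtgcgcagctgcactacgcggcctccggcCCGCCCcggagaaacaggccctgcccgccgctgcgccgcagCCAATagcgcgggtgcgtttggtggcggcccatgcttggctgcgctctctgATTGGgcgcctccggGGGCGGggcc
MTHFD1L: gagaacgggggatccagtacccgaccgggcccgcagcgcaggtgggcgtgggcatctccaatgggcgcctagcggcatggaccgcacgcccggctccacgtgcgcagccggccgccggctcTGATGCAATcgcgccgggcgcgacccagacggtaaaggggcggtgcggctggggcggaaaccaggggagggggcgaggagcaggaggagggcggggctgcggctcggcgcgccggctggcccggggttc

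The TYMS window held GCGGGAAA, the E2F element letters TTTCCCGC read on the other strand, 39 to 32 bases before the start. Any of the 4 forms searched on both strands (TTTCCCGC, TTTCGCGC, TTTGCCGC and TTTGGCGC) stood in 2.79% of 35116 promoter windows of this length. Among the other members they were also found in both windows listed for MTR and in 1 of 4 windows listed for SLC19A1, and none was found for SHMT1, FPGS, MTHFD1 or MTHFD1L, while no window was used here for GGH. The SHMT1 window held CCAAT or its reverse complement ATTGG, letters found in 32% of windows, and GGGCGG or CCGCCC, found in 42.6%. Neither is particular to SHMT1: the MTHFD1L window shown holds CCAAT once and GGGCGG 3 times, left in lower case, and windows of FPGS and MTR hold both. The MTHFD1L window held TGATGCAAT, a match to TGATGNAAT, 129 to 121 bases before the listed start, letters found in 0.888% of windows. CACGTG, found in 6.34% of windows, stood in lower case 154 to 149 bases before that start of MTHFD1L and in windows of MTHFD1 and FPGS, and TATAAA, found in 10.7%, stood in no window of the members. No 2 of these matches overlap in the windows shown. The RefSeq starts are not those of the files. The MTHFD1L window lies inside the gene as the files bound it, and the TYMS and SHMT1 windows reach into their genes, so that the E2F letters of TYMS lie just after the files' start of the gene. Which start these cells used was not measured. These matches describe the letters of the windows and are not measured binding sites.

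Library totals were 31991561 to 40590291 counts. RNA was selected by its poly(A) tail and sequenced without keeping the strand, so reads of a gene and of an antisense neighbour cannot be told apart where their exons overlap. That touches TYMS most: 967 of its 2470 exon bases (39.1%) overlap exons of ENOSF1, a gene on the opposite strand, and 183 overlap TYMSOS. Overlap with other genes covers 14.0% of the exon bases of SLC19A1 (with COL18A1), 11.0% of those of MTHFD1 (with ZBTB25, AL122035.1 and AL122035.2) and 3.69% of those of SHMT1 (with SMCR8 and MIR6778), and none of those of FPGS, GGH, MTHFD1L and MTR. Pseudogenes listed under the names of TYMS, SHMT1 and MTHFD1 held at most 10 counts in any library. Epithelial and colorectal markers were present in both lines, with 8 of 9 above 1 CPM (counts per 1e6 counts of a library, TMM-scaled) in each SW620 library and 6 or 7 of 9 in each HCT116 library. In SW620 the summed epithelial markers were at 4059 to 4540 CPM under AFZC and 12601 to 13769 CPM under 5-FU. Most of that sum is KRT8, at a mean of 1937 CPM under AFZC and 7960 CPM under 5-FU, and KRT18, at 839 CPM under AFZC and 3287 CPM under 5-FU, while KRT20 (21.0 CPM under AFZC and 2.36 CPM under 5-FU) and LGR5 (17.2 CPM under AFZC and 11.7 CPM under 5-FU) went the other way. The summed immune markers were at 15.96 to 41.5 CPM under AFZC and 5.54 to 7.85 CPM under 5-FU in SW620, with 1 of 5 (LYZ) above 1 CPM in each library and PTPRC and CD3E at 0 counts in both AFZC libraries. The summed endothelial markers were at 13.6 to 18.3 CPM under AFZC and 5.26 to 5.51 CPM under 5-FU in SW620, with 2 of 3 above 1 CPM, and the summed fibroblast markers at 40.1 to 71.6 CPM under AFZC and 50.7 to 55.0 CPM under 5-FU, with 2 of 5 above 1 CPM. In HCT116 the sums under AFZC and under 5-FU were 3393 to 5437 and 2605 to 3215 CPM for the epithelial markers, 52.0 to 58.5 and 44.1 to 45.2 CPM for the fibroblast markers and 5.16 to 5.22 and 3.14 to 3.93 CPM for the endothelial markers, none of them overlapping. The immune sums overlapped there, at 0.265 to 0.527 CPM under AFZC and 0.317 to 0.533 CPM under 5-FU. The part of these shifts in the results below was not tested.

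**Figure D1:**
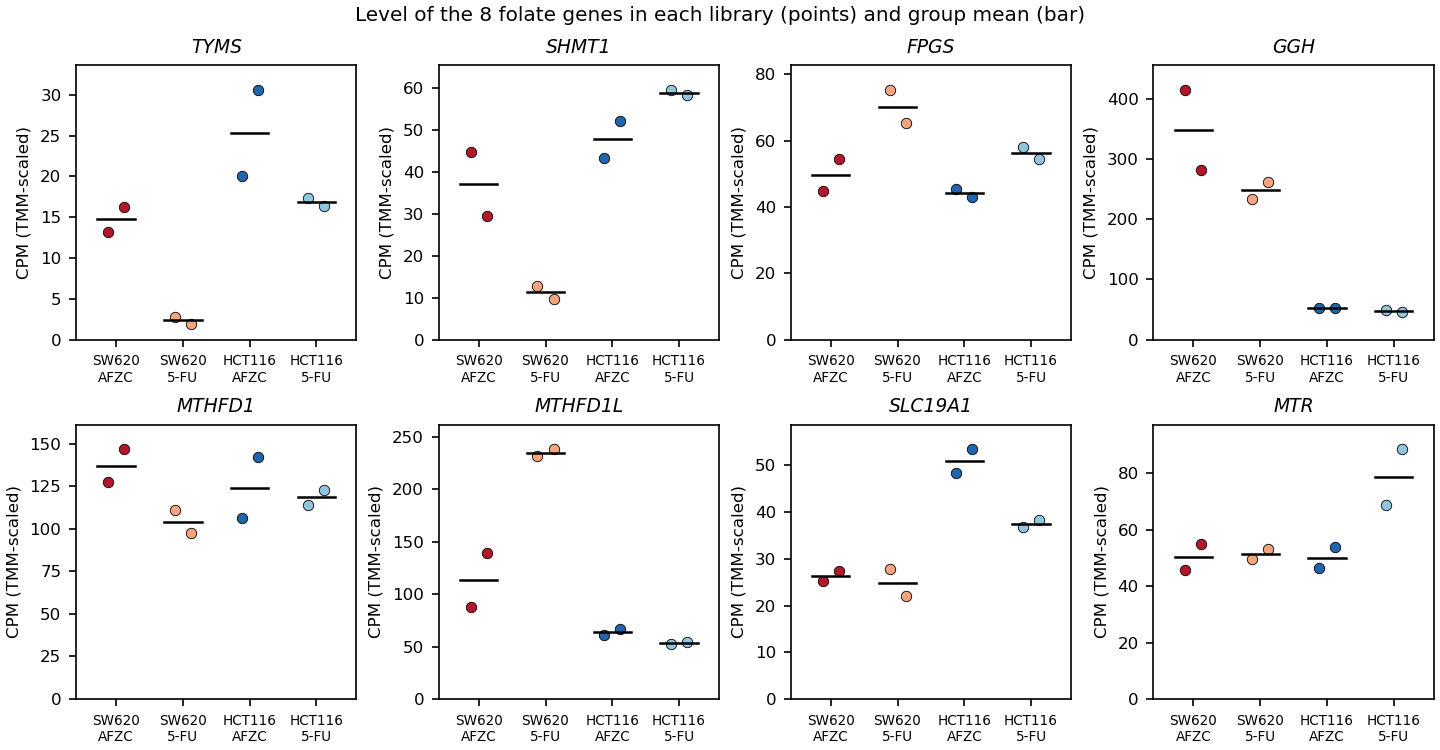
Level of each of the 8 genes in CPM scaled with TMM factors (y axis, from 0), with 1 point per library and a bar at the mean of the 2 libraries of a group. TYMS and SHMT1 have their lowest values in the 2 SW620 libraries under 5-FU (TYMS 2.82 and 1.96 CPM), where MTHFD1L has its highest (232 and 238 CPM).

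Per length, GGH was the highest of the 8 genes in every group, with 442 ± 124 TPM (length-scaled counts that sum to 1e6 in a library) in SW620 under AFZC, 232 ± 11.7 TPM in SW620 under 5-FU, 54.3 ± 2.65 TPM in HCT116 under AFZC and 49.2 ± 1.02 TPM in HCT116 under 5-FU (SD, n = 2 each). TYMS changed its place most between the groups of SW620. Under AFZC it took place 5 of the 8 in SW620, at 23.7 ± 3.14 TPM, and its libraries overlapped those of SHMT1 (20.3 ± 6.15 TPM), which overlapped those of MTR (17.6 ± 2.01 TPM). Under 5-FU TYMS was the lowest of the 8 in SW620, at 2.85 ± 0.815 TPM, just below SHMT1 at 4.55 ± 1.02 TPM, and no neighbours in the order overlapped there. In HCT116 TYMS was at 33.7 ± 11.7 TPM under AFZC, overlapping FPGS (36.7 ± 0.681 TPM), and at 22.2 ± 0.515 TPM under 5-FU, overlapping MTR (22.6 ± 5.33 TPM). TPM of TYMS divide by all 2470 of its exon bases, of which 46.6% overlap exons of other genes. How reads there were assigned is not given, so the place of TYMS among the 8 is uncertain in every group. SLC19A1 was the lowest gene in SW620 under AFZC (10.5 ± 0.461 TPM) and in HCT116 under 5-FU (12.2 ± 1.07 TPM), and MTR was lowest in HCT116 under AFZC (14.4 ± 2.24 TPM), where its libraries overlapped those of SLC19A1.

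SW620 under AFZC was compared with SW620 under 5-FU first. TYMS and SHMT1, the enzyme that makes thymidylate and the one that loads its cofactor in the cytosol, were higher under AFZC. MTHFD1L, the mitochondrial formate enzyme, and FPGS, which keeps folate in the cell, were lower. So 2 of 8 members were higher and 2 lower, where 11.6% of all genes tested were called higher, 6.95% lower and 18.6% in either direction at an adjusted p under 0.05. The median log2 fold change of the 8 was 0.24, and that of all genes tested was 0.03. The AFZC and 5-FU libraries did not overlap for 6 of 8 members, and for 59.8% of all genes tested.

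TYMS had 13.3 and 16.3 CPM in the SW620 libraries under AFZC, against 2.82 and 1.96 CPM in those under 5-FU. Both AFZC libraries lay far above both 5-FU libraries, which held 82 and 65 counts for the gene. The log2 fold change was 2.63 ± 0.282 (SE; 6.19-fold, adjusted p = 6.7e-05 by edgeR's quasi-likelihood test). ENOSF1, whose exons overlap those of TYMS, had 27.2 and 28.8 CPM under AFZC and 18.6 and 15.04 CPM under 5-FU, a log2 fold change of 0.74 ± 0.248 that was not called (adjusted p = 0.0556) but was called in 6 of the 16 other settings. The antisense gene TYMSOS held 51 and 44 counts under AFZC and 17 and 11 counts under 5-FU. Counts of TYMS over counts of ENOSF1 in the same library were 0.487 and 0.566 under AFZC and 0.152 and 0.131 under 5-FU, and the 2 groups did not overlap in this ratio.

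SHMT1 had 44.9 and 29.6 CPM in SW620 under AFZC, against 12.8 and 9.76 CPM under 5-FU. The AFZC libraries were well apart from each other, and both exceeded both 5-FU libraries. The log2 fold change was 1.72 ± 0.219 (3.30-fold, adjusted p = 0.000245 by edgeR's quasi-likelihood test). MTHFD1, the next enzyme of the cytosolic path, had 128 and 147 CPM under AFZC against 111 and 97.8 CPM under 5-FU. Its libraries did not overlap, and its log2 fold change of 0.40 ± 0.169 (95% interval 0.03 to 0.76) was not called (adjusted p = 0.123). With libraries scaled by their totals alone MTHFD1 was called higher (0.77, adjusted p = 0.00757 by edgeR's quasi-likelihood test).

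MTHFD1L went the other way, with 87.8 and 139 CPM in SW620 under AFZC against 232 and 238 CPM under 5-FU. The 5-FU libraries were close together and the AFZC libraries were spread below them. The log2 fold change was -1.05 ± 0.193, a level 2.07-fold lower (adjusted p = 0.0027, edgeR's quasi-likelihood test). The ratio of MTHFD1L to MTHFD1 counts within a library, mitochondrial over cytosolic, was 0.687 and 0.951 under AFZC and 2.09 and 2.44 under 5-FU.

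FPGS had 45.0 and 54.4 CPM in SW620 under AFZC, against 75.3 and 65.2 CPM under 5-FU. Its log2 fold change was -0.50 ± 0.157, close to the threshold (adjusted p = 0.0424). That call was lost when libraries were scaled by their totals alone (log2 fold change -0.13, adjusted p = 0.596) and when any of 5 libraries was left out, HCT116 5-FU 1 or 2, SW620 5-FU 1 or 2, or SW620 AFZC 1 (adjusted p 0.0694 to 0.263). It was also lost with only the 4 SW620 libraries (adjusted p = 0.0663) and with the replicate block (adjusted p = 0.0598). GGH, which undoes the work of FPGS, had 414 and 282 CPM under AFZC and 233 and 262 CPM under 5-FU. Its log2 fold change of 0.49 ± 0.181 (95% interval 0.10 to 0.88) was not called (adjusted p = 0.0766), and it was called without SW620 AFZC 2 (0.74, adjusted p = 0.00787), without a low count filter and with library totals alone (0.87).

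The carrier SLC19A1 had 25.3 and 27.4 CPM in SW620 under AFZC, between the 27.8 and 22.0 CPM of the 5-FU libraries. Its log2 fold change was 0.08 ± 0.170, with a 95% interval of -0.29 to 0.45 (adjusted p = 0.793). MTR had 45.8 and 54.9 CPM under AFZC, on either side of the 49.7 and 53.1 CPM under 5-FU, with a log2 fold change of -0.03 ± 0.170 and a 95% interval of -0.40 to 0.34 (adjusted p = 0.943). For these 2 genes the groups overlapped and no difference was detectable at this spread.

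**Figure D2:**
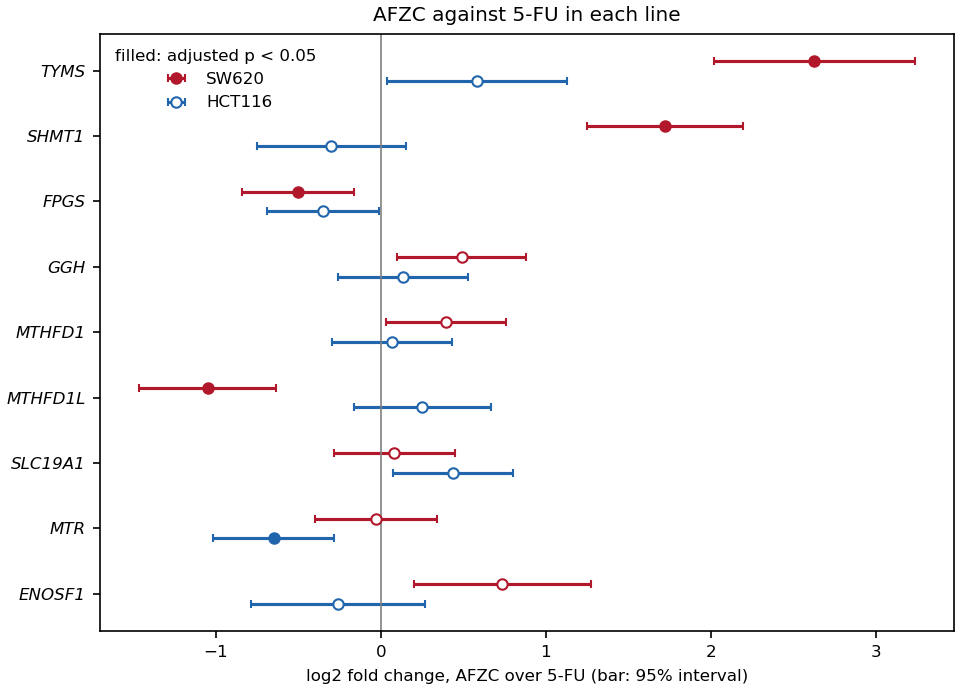
Log2 fold change of AFZC over 5-FU for the 8 genes and for ENOSF1 (x axis) in SW620 and HCT116, with 95% intervals from edgeR's quasi-likelihood fit and filled points where the adjusted p was under 0.05. TYMS stands at 2.63 in SW620 and 0.58 in HCT116, SHMT1 at 1.72 and -0.30, and MTHFD1L at -1.05 and 0.25.

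The same comparison was made in HCT116. Of the 8 members 0 were called higher and 1, MTR, lower, where 5.87% of all genes tested were called higher, 3.74% lower and 9.61% in either direction. Without HCT116 5-FU 1 the calls over all genes were 216 higher and 89 lower, without HCT116 5-FU 2 they were 383 and 242, and without HCT116 AFZC 1 they were 509 and 269, against 1254 and 800 with all libraries. At an unadjusted p under 0.05 by edgeR 2 members were higher, TYMS and SLC19A1, and 2 lower, FPGS and MTR. At that unadjusted threshold 2943 of all 21378 genes tested were higher and 2350 lower. DESeq2 also called 0 members higher. The libraries of the groups did not overlap for 7 of 8 members, and for 55.4% of all genes tested. The median log2 fold change of the members was 0.10, and that of all genes was 0.

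MTR, methionine synthase, had 46.6 and 53.8 CPM in HCT116 under AFZC, against 68.9 and 88.5 CPM under 5-FU. Both AFZC libraries were below both 5-FU libraries. The log2 fold change was -0.65 ± 0.170, a level 1.57-fold lower (adjusted p = 0.0303, edgeR's quasi-likelihood test). The call was lost without HCT116 5-FU 1 (adjusted p = 0.0752), without HCT116 5-FU 2 (0.238) and without HCT116 AFZC 1 (0.172).

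TYMS had 20.1 and 30.6 CPM in HCT116 under AFZC, against 17.3 and 16.4 CPM under 5-FU. The groups did not overlap, and the 2 AFZC libraries were further from each other than the lower of them was from the 5-FU libraries. The log2 fold change was 0.58 ± 0.252, with a 95% interval of 0.04 to 1.13, and was not called (adjusted p = 0.169). It ran from 0.23 to 0.85 over 16 other settings and was called in 0 of them. ENOSF1 had 23.9 and 43.1 CPM under AFZC, overlapping the 36.1 and 44.3 CPM under 5-FU, with a log2 fold change of -0.26 ± 0.244 (adjusted p = 0.563). Counts of TYMS over counts of ENOSF1 were 0.838 and 0.709 under AFZC and 0.480 and 0.370 under 5-FU in HCT116, which do not overlap.

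SLC19A1 had 48.4 and 53.4 CPM in HCT116 under AFZC, against 36.8 and 38.2 CPM under 5-FU. The groups did not overlap, and the log2 fold change of 0.44 ± 0.169 (95% interval 0.07 to 0.80) was not called (adjusted p = 0.124). COL18A1, whose exons overlap those of SLC19A1, held 4900 and 4149 counts under AFZC and 9460 and 9400 counts under 5-FU. FPGS had 45.4 and 43.1 CPM under AFZC and 58.2 and 54.4 CPM under 5-FU, a log2 fold change of -0.35 ± 0.157 (adjusted p = 0.19). SHMT1 had 43.5 and 52.3 CPM under AFZC and 59.6 and 58.4 CPM under 5-FU (-0.30 ± 0.209, adjusted p = 0.416).

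GGH, MTHFD1 and MTHFD1L were not called in HCT116. GGH had 52.3 and 51.9 CPM under AFZC and 48.8 and 46.1 CPM under 5-FU, with a 95% interval of the log2 fold change of -0.26 to 0.53. MTHFD1 had 107 and 142 CPM under AFZC, on either side of the 114 and 123 CPM under 5-FU, with an interval of -0.30 to 0.43. MTHFD1L had 60.9 and 66.7 CPM under AFZC and 52.4 and 54.7 CPM under 5-FU, with an interval of -0.16 to 0.67 (adjusted p = 0.466).

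Whether the AFZC effect differed between the lines was then tested. It did for TYMS, SHMT1 and MTHFD1L, with 2 of 8 members called higher in SW620 than in HCT116 and 1 called lower, where 5.65% of all genes tested were called higher, 4.14% lower and 9.78% in either direction. The effect on TYMS was larger in SW620 by 2.04 ± 0.373 on the log2 scale (adjusted p = 0.0052), that on SHMT1 by 2.02 ± 0.302 (adjusted p = 0.00164). The effect on MTHFD1L was lower in SW620, with a difference of -1.30 ± 0.272 (adjusted p = 0.0104). The MTHFD1L difference was not called without HCT116 5-FU 1 (adjusted p = 0.0676) or without HCT116 5-FU 2 (0.0533). The other differences were not called, and their 95% intervals were 0.10 to 1.14 for MTR, -0.20 to 0.91 for GGH, -0.63 to 0.33 for FPGS, -0.19 to 0.84 for MTHFD1 and -0.88 to 0.16 for SLC19A1. With library totals alone the MTR difference was called (0.97, adjusted p = 0.0213). Over all genes, 478 were called higher and 279 lower without HCT116 5-FU 1, 582 and 414 without HCT116 5-FU 2, 655 and 362 without SW620 5-FU 2 and 902 and 545 without HCT116 AFZC 1, against 1207 and 884 with all libraries. FPGS was below its 5-FU level in both lines, called in SW620 and not in HCT116, and the interval of its difference includes 0.

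The lines were also set against each other under the same agent. The difference of the effects is the gap between these contrasts, and without untreated cells it cannot be placed under either agent. Under 5-FU, TYMS, SHMT1, SLC19A1 and MTR were lower in SW620 than in HCT116, and GGH and MTHFD1L higher, 6 of 8 members where 26.5% of all genes tested were called higher, 28.2% lower and 54.8% in either direction. TYMS was lower by 7.07-fold (log2 fold change -2.82 ± 0.283, adjusted p = 3.03e-06) and SHMT1 by 5.23-fold (-2.39 ± 0.223, adjusted p = 1.62e-06). MTHFD1L was 4.39-fold higher (2.13 ± 0.199, adjusted p = 1.6e-06) and GGH 5.22-fold higher (2.38 ± 0.190, adjusted p = 3.76e-07). MTR (-0.61, adjusted p = 0.00825) and SLC19A1 (-0.59, adjusted p = 0.01) were lower by smaller amounts. The MTR call was lost without HCT116 5-FU 2 (adjusted p = 0.0997) or SW620 5-FU 1 (0.0628), and the SLC19A1 call without HCT116 5-FU 2 (0.052) or SW620 5-FU 2 (0.141).

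Under AFZC the lines were closer for TYMS, SHMT1 and MTHFD1L. Members called were 2 higher and 2 lower in SW620, where 25.1% of all genes tested were called higher, 24.2% lower and 49.3% in either direction. TYMS was lower in SW620 by 1.71-fold (-0.78 ± 0.253, adjusted p = 0.0219), a call lost without HCT116 AFZC 2 (-0.43, adjusted p = 0.257) and without SW620 AFZC 1 (adjusted p = 0.108). SHMT1, with 44.9 and 29.6 CPM in SW620 and 43.5 and 52.3 CPM in HCT116, overlapped between the lines (-0.36 ± 0.210, 95% interval -0.82 to 0.09, adjusted p = 0.17), and it was called lower without SW620 AFZC 1 (-0.68, adjusted p = 0.0221). MTHFD1L was 1.78-fold higher (0.83 ± 0.193, adjusted p = 0.00306). GGH was 6.68-fold higher in SW620 (2.74 ± 0.193, adjusted p = 1.64e-07), and SLC19A1 was 1.93-fold lower (-0.95 ± 0.170, adjusted p = 0.000504). MTR had a log2 fold change of 0.00 between the lines under AFZC, with an interval of -0.36 to 0.37. These comparisons share their libraries with the treatment comparisons and are not independent of them.

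Ratios of counts within a library do not depend on how libraries are scaled. They do depend on the gene divided by. In SW620 the log2 fold change under AFZC was -0.50 for FPGS and 0.40, not called, for MTHFD1. Each of these shifts widens the difference of its ratios between the SW620 groups. TYMS counts over FPGS counts were 0.295 and 0.300 in SW620 under AFZC, 0.0375 and 0.0301 in SW620 under 5-FU, 0.442 and 0.709 in HCT116 under AFZC and 0.298 and 0.302 in HCT116 under 5-FU. The 2 SW620 libraries under AFZC thus lay beside the HCT116 libraries under 5-FU, and those of SW620 under 5-FU stood apart from the other 6. SHMT1 over FPGS was 0.998 and 0.544 in SW620 under AFZC, 0.170 and 0.150 in SW620 under 5-FU, 0.958 and 1.21 in HCT116 under AFZC and 1.02 and 1.07 in HCT116 under 5-FU. MTHFD1L over MTHFD1 was above 2 only in SW620 under 5-FU, and was 0.571 and 0.470 in HCT116 under AFZC and 0.460 and 0.444 in HCT116 under 5-FU.

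**Figure D3:**
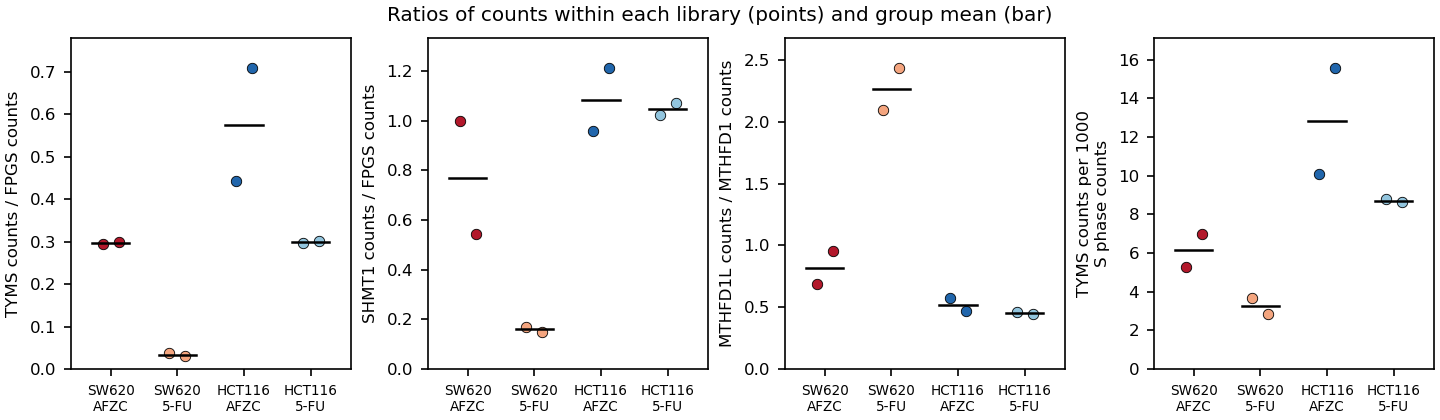
Ratios of counts within each library (y axes, from 0), with 1 point per library and a bar at the group mean, for TYMS over FPGS, SHMT1 over FPGS, MTHFD1L over MTHFD1, and TYMS per 1000 counts of 20 S phase genes. The 2 SW620 libraries under 5-FU have the lowest TYMS over FPGS (0.0375 and 0.0301) and the highest MTHFD1L over MTHFD1 (2.09 and 2.44).

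The pathways around the 8 genes were described by lists. In SW620 the 5 genes of thymidylate supply, which make or phosphorylate the substrate and product of TYMS, had 3 called higher under AFZC and 0 lower by edgeR and by DESeq2 (1 lower at an unadjusted p under 0.05), with a median log2 fold change of 1.40 against 0.03 over all genes tested. TK1, the salvage kinase for thymidine, had 185 and 178 CPM under AFZC against 34.4 and 29.7 CPM under 5-FU (2.50 ± 0.178, adjusted p = 7.42e-06). DUT, which hydrolyses dUTP to the dUMP that TYMS uses, had 71.2 and 79.0 CPM under AFZC against 26.3 and 24.1 CPM under 5-FU (1.57 ± 0.174, adjusted p = 8.53e-05). DTYMK, which phosphorylates dTMP and was named after its value was seen, rose by 1.40 ± 0.203 (adjusted p = 0.000616). TK2, the mitochondrial kinase (0.01), and DCTD, a deaminase that makes dUMP (-0.36), were not called.

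The list of 15 folate interconversion genes had 1 called higher and 2 lower in SW620, with a median of 0.09. SHMT2, the mitochondrial counterpart of SHMT1, fell, with 321 and 519 CPM under AFZC against 725 and 695 CPM under 5-FU (-0.76 ± 0.212, adjusted p = 0.0261). That call was lost without 4 of the 8 single libraries and with library totals alone. MTHFD2, the mitochondrial enzyme that works before MTHFD1L and was named after its value was seen, was at 160 and 246 CPM under AFZC and 283 and 311 CPM under 5-FU and was not called (-0.55 ± 0.189, adjusted p = 0.0607).

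Of 10 folate transport genes in SW620 0 were called higher and 1 lower by edgeR and by DESeq2, and the median was 0.04. At an unadjusted p under 0.05 by edgeR 4 were higher and 3 lower. At that unadjusted threshold 4055 of all 21378 genes tested were higher in SW620 and 2862 lower. The transport gene called lower was ABCC3, an efflux pump, with 91.6 and 134 CPM under AFZC against 276 and 300 CPM under 5-FU (-1.35 ± 0.186, adjusted p = 0.000423). None of the 6 genes of de novo purine synthesis (median -0.11) and none of the 3 of serine synthesis (median -0.32) was called by edgeR or DESeq2. At an unadjusted p under 0.05 by edgeR 1 purine gene was higher and 1 lower, and 0 serine synthesis genes passed. Of the 7 methionine cycle genes 5 were tested and 1 was lower, MAT2A, which makes S-adenosylmethionine (-0.66 ± 0.165, adjusted p = 0.0151), a call lost without 3 of 8 single libraries and with library totals alone. All 20 genes of an S phase list, which does not hold TYMS, were called higher in SW620 under AFZC, with a median of 2.24, led by CCNE2 (2.96 ± 0.352, adjusted p = 0.000145) and CDC45 (2.70 ± 0.264, adjusted p = 3.39e-05). Their summed level was 2503 and 2333 CPM under AFZC and 768 and 691 CPM under 5-FU, so these genes moved together with TYMS and SHMT1. TYMS counts per 1000 counts of the S phase list were 5.30 and 6.98 under AFZC and 3.67 and 2.84 under 5-FU in SW620. SHMT1 counts per 1000 were 17.9 and 12.7 under AFZC and 16.7 and 14.1 under 5-FU, which overlap. The part of the S phase genes' shift in the levels of TYMS and SHMT1 was not tested, and in bulk RNA a change in the share of cells in S phase and a change in RNA per cell cannot be told apart.

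**Figure D4:**
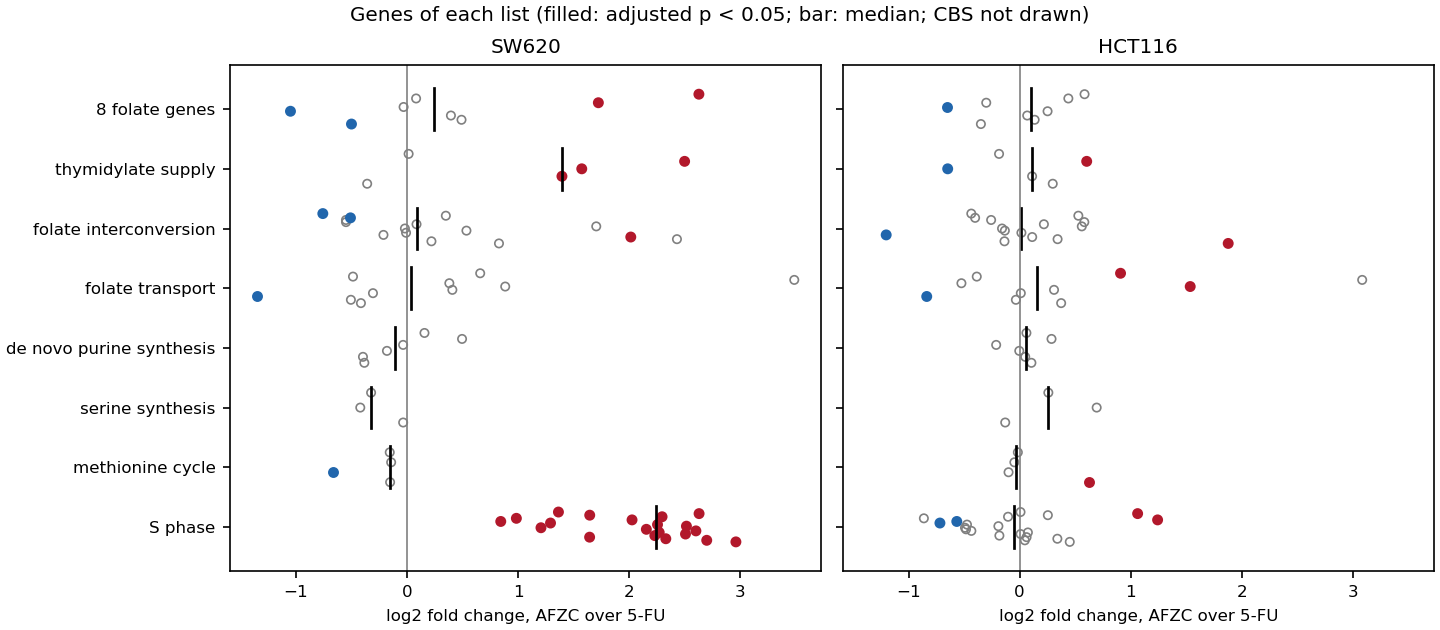
Log2 fold change of AFZC over 5-FU (x axis) for every tested gene of each list in SW620 (left) and HCT116 (right), filled where the adjusted p was under 0.05, with a bar at the list's median; CBS, at 0 counts in 1 group, is not drawn and is left out of the drawn median. In SW620 all 20 S phase genes and 3 of 5 thymidylate supply genes are filled and above 0, and in HCT116 the S phase list lies around 0 (median -0.05).

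The same lists were described in HCT116. Thymidylate supply had 1 of 5 higher, TK1 (0.60 ± 0.168, adjusted p = 0.04), and 1 lower, DUT (-0.65 ± 0.170, adjusted p = 0.0309), with a median of 0.11. DUT had 25.7 and 31.96 CPM under AFZC against 49.1 and 41.2 CPM under 5-FU, the opposite direction to SW620, and the difference between the lines was called (2.22 ± 0.243, adjusted p = 0.000233). The effect also differed for TK1 (1.90 ± 0.240, adjusted p = 0.000614) and DTYMK (1.28 ± 0.283, adjusted p = 0.0136). The interconversion list had 1 of 15 higher, ALDH1L1, which oxidises formyl-tetrahydrofolate (1.88 ± 0.502, adjusted p = 0.0335, at most 1.83 CPM), and 1 lower. In transport ABCG2 (1.54 ± 0.324, adjusted p = 0.0111) and SLC46A1, the proton-coupled folate carrier (0.91 ± 0.258, adjusted p = 0.0434), were higher and ABCC3 was lower (-0.84 ± 0.185, adjusted p = 0.0141).

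None of the 6 purine genes (median 0.06) and none of the 3 serine synthesis genes (median 0.26) was called in HCT116 by edgeR. At an unadjusted p under 0.05 by edgeR 0 purine genes and 1 serine synthesis gene passed, and DESeq2 called 0 purine genes and 1 serine synthesis gene, higher. In the methionine cycle AHCY was higher (0.63 ± 0.158, adjusted p = 0.0256). CBS held 69 counts over the AFZC libraries and 0 under 5-FU, at least 21.9-fold higher against a floor of 3 counts over the group, and its near-identical copy CBSL leaves the value uncertain. The S phase list had 2 of 20 higher, PCNA (1.24 ± 0.166, adjusted p = 0.000884) and RRM2 (1.06 ± 0.230, adjusted p = 0.0139), and 2 lower, MCM6 (-0.72 ± 0.143, adjusted p = 0.00851) and MCM7 (-0.57 ± 0.161, adjusted p = 0.0435), with a median of -0.05. TYMS counts per 1000 S phase counts were 10.1 and 15.6 under AFZC and 8.81 and 8.62 under 5-FU in HCT116. For SHMT1 they were 21.8 and 26.6 under AFZC and 30.3 and 30.6 under 5-FU, which do not overlap. Apart from CBS and PCNA, the calls of list genes in HCT116 were lost without 2 to 6 of the 8 single libraries, and over the 7 lists together the count of genes called fell to 2 higher and 0 lower without HCT116 5-FU 1 or without HCT116 5-FU 2, and to 2 higher and 1 lower without HCT116 AFZC 1, against 8 higher and 5 lower with all libraries.

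The genes whose pattern was most like that of TYMS were taken by Pearson correlation of log2 CPM over the 8 libraries, among 11925 genes with a mean log2 CPM of at least 1. They were PCLAF (r = 0.992), CCDC150 (0.99), PBK (0.989), MAD2L1 (0.986) and TEDC1 (0.986). The 8 points are 4 groups of 2 and the SW620 5-FU libraries are the low end for each of these genes, so the coefficients are a description with no test. PCLAF had 11.1 and 11.9 CPM in SW620 under AFZC, 2.93 and 1.93 CPM in SW620 under 5-FU, 14.3 and 18.3 CPM in HCT116 under AFZC and 15.7 and 11.3 CPM in HCT116 under 5-FU. In SW620 the log2 fold changes were 2.24 for PCLAF, 2.22 for CCDC150, 2.22 for PBK, 1.17 for MAD2L1 and 2.15 for TEDC1, each called higher, and none of the 5 was called in HCT116. The 5 genes were picked for following TYMS over these same libraries. Their calls therefore follow largely from that choice and are no separate result. Among the members SHMT1 was most like TYMS (r = 0.937, place 179 of 11925), followed by SLC19A1 (0.748), MTHFD1 (0.66) and MTR (0.218), while MTHFD1L (-0.872), FPGS (-0.823) and GGH (-0.581) had negative coefficients.

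**Figure D5:**
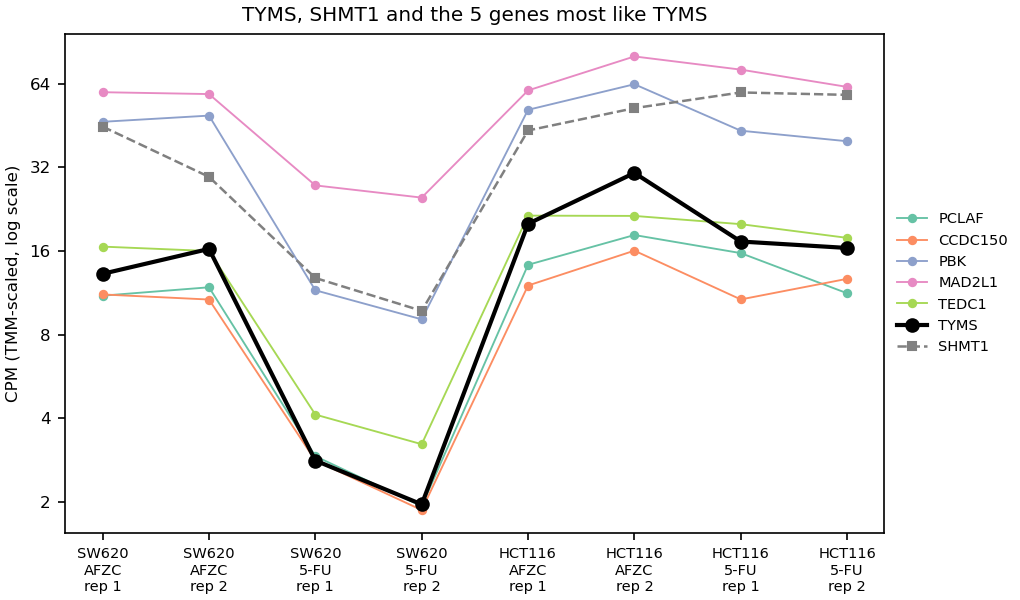
Level in CPM (y axis, log scale) of TYMS, SHMT1 and the 5 genes most like TYMS in each of the 8 libraries (x axis). Each line has its lowest points in the 2 SW620 libraries under 5-FU, where TYMS is at 2.82 and 1.96 CPM and PCLAF at 2.93 and 1.93 CPM.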

How the data were processed

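RNA was measured in 8 libraries, 2 in each of 4 groups. The deposited values are raw read counts by gene symbol. The submitters' processing notes name GRCh38, the aligners STAR and HISAT2, featureCounts for counting, FastQC, cutadapt and Trimmomatic for reads, and edgeR and DESeq2. How reads in overlapping exons were assigned, and by which aligner they were placed, is not given in the sources used here. In each library the number of genes at 2 counts was 1.68 to 1.84 times the number at 1 count. That can happen when both mates of a fragment are counted, and counting error would then be larger than the counts alone give. Whether mates were counted singly is not given in the sources used here and was not tested. Of the deposited symbols, 27 had turned into dates, and they are not named here.

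Counts passed filterByExpr (minimum count 10), leaving 21378 genes, with TMM scaling in edgeR 4.0.16 (R 4.3.3). A quasi-likelihood model with 4 group means and robust dispersion was fitted to all 8 libraries (4 residual degrees of freedom, coefficient of biological variation 19.9%). All tests were two-sided, p-values were adjusted over all genes by Benjamini-Hochberg with a threshold of 0.05, and the SE is the log2 fold change over the square root of F. CPM are TMM-scaled. TPM, from the deposited counts and gene lengths, serve only to compare genes. Libraries are named by group and replicate number. Nothing in the labels ties the 2 libraries of a group to separate cultures, so the spread behind each p-value may be technical. That spread exceeded counting noise in every group (chi-square over its degrees of freedom 23.3 to 58.7).

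Alternatives were other scaling (RLE factors, library totals), no filter, a minimum count of 30, DESeq2 1.42.0, dispersion without the robust step, only the 4 libraries compared, a replicate block and each library left out in turn. The members and lists were chosen with earlier results of these data known. All members are named in every comparison. From each list the 2 called genes with the largest change in each direction are named, except some that are not reported here though list counts include them, then the genes overlapping members and the 5 most like TYMS. Promoter windows came from RefSeq (GRCh38.p14), with a window for 7 of the 8 members, and no other sequence was used.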

Additional observations from a re-analysis of the deposited data

Results flagged for a closer look

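For 3 of the 8 genes the effect of AFZC differed between the lines by the test of that difference, where 9.78% of all genes tested were called in either direction. For TYMS the difference of the effects, SW620 minus HCT116, was 2.04 on the log2 scale (adjusted p = 0.0052). For SHMT1 it was 2.02 (adjusted p = 0.00164). For MTHFD1L it was -1.30 (adjusted p = 0.0104), with the mitochondrial enzyme lower under AFZC in SW620. The MTHFD1L difference was -1.27 without HCT116 5-FU 1 and -1.31 without HCT116 5-FU 2, and was called in neither fit. With 2 libraries in each group, no group was large enough to look for a single library standing apart.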

How the results depend on the processing

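The rise of TYMS and SHMT1 and the fall of MTHFD1L under AFZC in SW620 were called in 16 of 16 other settings (log2 fold changes 2.38 to 2.998, 1.40 to 2.10 and -1.42 to -0.68), and their differences between the lines in 15 of 15, 15 of 15 and 13 of 15. Over the 8 members and all comparisons, 594 values kept direction and call, 19 lost a call, 7 gained one and 12 changed sign. With library totals alone the median log2 fold change of all genes in SW620 moved to 0.40, against 0.03, and the calls were 5141 higher and 445 lower (92% higher), against 2482 and 1486 (62.6%). The share of higher calls became 85.1%, against 57.7%, for the difference of effects and 35.6%, against 48.5%, for SW620 against HCT116 under 5-FU. Under that scaling 4 members were higher and 1 lower in SW620, and list genes called lower were 3 in HCT116, 1 in SW620 and 1 for the difference. Without a filter 8 list genes were lower in HCT116. With only the 4 SW620 libraries 1 member was lower there. Without single libraries, members called lower ran from 0 to 1 in HCT116, 1 to 2 in SW620, 0 to 1 for the difference, 2 to 4 between the lines under 5-FU and 1 to 2 under AFZC. List genes ran from 2 to 10 higher and 0 to 7 lower in HCT116, 1 to 7 lower in SW620 and 1 to 8 lower for the difference. Over all genes, calls higher and lower ran from 1135 to 2703 and 448 to 1741 in SW620 (1135 and 448 without SW620 5-FU 2, 1531 and 796 without SW620 5-FU 1, 1615 and 859 without SW620 AFZC 1), 216 to 1509 and 89 to 1215 in HCT116 and 478 to 1521 and 279 to 1112 for the difference (both fewest without HCT116 5-FU 1). The difference of effects has no fit on 4 libraries.

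No pairing by replicate number was seen: the correlation of deviations ran from -0.102 to 0.0952 over 6 pairs of groups. The labels do not say whether equal replicate numbers mark shared days or cultures, and coefficients this small cannot exclude a weak shared shift. With the replicate block 1 member was lower in SW620 and 3 list genes were lower in HCT116. Signs that changed were all of values not called. With library totals these were MTR in SW620 (0.35) and the FPGS difference (0.20). Between the lines under AFZC, MTR was at -0.00767 with a minimum count of 30 and at -0.00656 with 4 libraries. Without single libraries the log2 fold change ran from -0.18 to 0.25 for MTHFD1 in HCT116, -0.77 to 0.092 for ENOSF1 in HCT116, -0.082 to 0.26 for SLC19A1 in SW620, -0.17 to 0.10 for MTR in SW620 and -0.28 to 0.0050 for the FPGS difference. Between the lines under AFZC it ran from -0.055 to 0.37 for MTHFD1, -0.13 to 0.14 for MTR and -0.63 to 0.24 for ENOSF1. The cause of these changes was not tested. TYMS under 5-FU in SW620 rests on 65 and 82 counts, the fewest of any member.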
